A study of Mus musculus with 13 samples.

Results

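Dendritic cells and macrophages present antigen to T cells together with further surface signals, and 10 genes for such signals were followed through the cell types of the mouse liver: Cd40, Cd80, Cd86, Icosl, Cd274, Pdcd1lg2, Cd200, Havcr2, Lgals9 and Ido1. They were 10 of the 55353 gene symbols listed in the deposited count matrices, listed by name with no threshold on a value but with earlier results of these data known. Their UMIs (unique molecular identifiers, each standing for a captured transcript) were read in the 95563 barcodes with at least 1500 UMIs. The cell types compared were conventional dendritic cells of type 1 (cDC1-like, 3914 cells) and type 2 (cDC2-like, 6624 cells), Ccr7 and Fscn1 positive mature dendritic cells (mature DC-like, 740 cells), macrophages (macrophage-like, 9362 cells), liver sinusoidal endothelial cells (LSEC-like, 27196 cells) and biliary epithelial cells (BEC-like, 4345 cells). Cells were clustered without the 10 genes and named from marker lists that hold none of them, so the names did not use the values of these genes.

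The data were droplet-based single-cell RNA libraries from livers of male C57BL/6J mice, 6 to 12 weeks of age per the study's methods, fed chow with 0.1% DDC (3,5-diethoxycarbonyl-1,4-dihydrocollidine), a porphyrinogenic diet that injures the small bile ducts. The atlas held 12 libraries, of which 2 were from untreated mice (D0), 4 from disease onset (D3 and D5) and 6 from disease progression (D9, D19 and D25), and a library of its own (STOP) came from mice returned to normal chow for 7 days after prolonged DDC feeding. On each day of the atlas, protocol A sorted, in equal parts, live singlets, retinoid-autofluorescent cells, and cells positive for Cd45, for Lyve-1, for Pdpn, for Epcam or for Cd31 without Lyve-1, and protocol B sorted live cells of a stellate cell preparation, Cd45+ Itgax+ Cd64-, Epcam+ and Cd3e+ Lyve-1- cells, with single and dual index kits respectively. STOP was prepared by protocol B, and because the sort gates set the mix of cells, shares of cell types were not compared. Libraries are named by day and protocol (D5 B).

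The libraries held 29307190 to 108602421 UMIs, 1541 to 14764 cells and a median of 3350 to 12013 UMIs per cell, and no pair of libraries shared more than 49 cell barcodes. Each D0 library stood apart from the DDC libraries in some of the cell types. In D0 B, 83.1% of cDC1-like, 73.8% of cDC2-like and 64.6% of macrophage-like cells lay in clusters that held 0.811%, 0.0802% and 0.0713% of the DDC cells of these types. Of the D0 A cells, 0 of 23 cDC1-like and 0 of 27 cDC2-like cells lay in those clusters. Instead, 56.5% and 29.6% of them lay in the subclusters led by Sept3 and by Ccl17, with 65.3% and 46.6% of the DDC cells. The D0 libraries thus differed from each other in these 2 types. In D0 A, 91.1% of LSEC-like and 88.4% of BEC-like cells lay in clusters with 0.0700% and 4.87% of the DDC cells, while the mature DC-like cells of all libraries formed 1 subcluster. Diet therefore cannot be told apart from these differences between clusters in types other than mature DC-like cells. In mature DC-like cells it cannot be told apart from what is particular to D0 B, the only D0 library with at least 20 of them. D0 A held few dendritic cells (23 cDC1-like, 27 cDC2-like and 13 mature DC-like), so D0 levels of these types rest largely on D0 B, and results against D0 are given with and without it where it decides them. In D3 B, 24.9% of cells and 42.9% of mature DC-like cells were called doublets by the automatic cut of Scrublet. Only D0 B, D3 B, D5 B and D25 A had this cut, and called doublets were kept in the main results. All 10 mature DC markers, from the lists used for naming, were detected in the mature DC-like cells of every library with at least 20 of them.

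Cd80 and Cd86 are the ligands that engage CD28 for costimulation and CTLA-4 for inhibition on T cells, Icosl is the ligand of ICOS, and Cd40 is the receptor through which CD40 ligand on T cells licenses the presenting cell. Cd274 (PD-L1) and Pdcd1lg2 (PD-L2) are ligands of the inhibitory receptor PD-1, and Cd200 restrains myeloid cells through its receptor CD200R. Havcr2 (TIM-3) is an inhibitory receptor whose reported ligands include galectin-9, the product of Lgals9, and Ido1 breaks down tryptophan, which limits T cell proliferation. In tissue dendritic cells, maturation raises surface costimulation and CCR7, which guides the cells to draining lymph nodes.

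In GRCm38, Cd274 (chr19:29367455-29388095, plus strand) and Pdcd1lg2 (chr19:29410919-29471161, plus strand) lie next to each other with 22823 bases between them. Chromosome 16 holds Cd80 (chr16:38455561-38496335, plus), Cd86 (chr16:36603869-36666081, minus) and Cd200 (chr16:45382135-45409053, minus), and chromosome 11 holds Havcr2 (chr11:46454935-46481255, plus) and Lgals9 (chr11:78962974-78984946, minus). The others are Cd40 (chr2:165055627-165072948, plus), Icosl (chr10:78069302-78083913, plus) and Ido1 (chr8:24584136-24597009, minus). RefSeq (GRCm38.p6) gave a promoter window, from 250 bases before to 50 after the start, for 7 of the 10 genes. Windows are shown for Cd274 and Lgals9, which had opposite levels in mature DC-like cells, and for Cd200, which differed most between mature DC-like and cDC2-like cells; capitals mark matches on either strand to GGGNNNTTC (the form of an NF-κB site) or GAAANNGAA (the form of an interferon regulatory factor site).

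Cd274, chr19:29367188-29367487, plus strand: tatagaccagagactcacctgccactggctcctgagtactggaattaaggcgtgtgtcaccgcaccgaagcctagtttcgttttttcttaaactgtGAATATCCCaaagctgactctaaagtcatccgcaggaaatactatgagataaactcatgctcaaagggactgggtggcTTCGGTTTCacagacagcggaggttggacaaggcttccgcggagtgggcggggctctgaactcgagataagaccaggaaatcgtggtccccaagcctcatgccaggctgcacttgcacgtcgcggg
Lgals9, chr11:78984875-78985174, minus strand: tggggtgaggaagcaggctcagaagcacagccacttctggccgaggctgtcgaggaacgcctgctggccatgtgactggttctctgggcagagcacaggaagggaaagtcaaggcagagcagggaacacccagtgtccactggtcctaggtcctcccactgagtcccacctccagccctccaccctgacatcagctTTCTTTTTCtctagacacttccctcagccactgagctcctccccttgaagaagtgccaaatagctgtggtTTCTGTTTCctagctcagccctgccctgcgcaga
Cd200, chr16:45409004-45409303, minus strand: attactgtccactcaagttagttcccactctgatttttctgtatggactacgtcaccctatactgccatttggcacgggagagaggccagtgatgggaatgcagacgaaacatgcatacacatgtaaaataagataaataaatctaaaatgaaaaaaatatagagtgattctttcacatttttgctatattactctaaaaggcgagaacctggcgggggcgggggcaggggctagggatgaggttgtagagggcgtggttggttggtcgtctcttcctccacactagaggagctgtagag

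The Cd274 window held 1 match of each form, the Lgals9 window 2 of the GAAANNGAA form, and the other 5 windows (Cd80, Pdcd1lg2, Icosl, Cd200 and Havcr2) none of either or of TTCNNNGAA. Of all 32851 RefSeq mouse promoter windows, 13.96% held GGGNNNTTC, 8.56% GAAANNGAA and 8.30% TTCNNNGAA. These matches describe letters in a window and are not evidence of binding.

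Mature DC-like cells carried the highest mean level of 8 of the 10 genes among the 6 cell types: Cd40, Cd80, Cd86, Icosl, Cd274 and Cd200, and, at very low levels, Pdcd1lg2 and Ido1. Havcr2 was highest in cDC1-like cells and Lgals9 in LSEC-like cells, the same types that came first when each cell was thinned to 1500 UMIs. Levels are in CPM, a gene's UMIs over all UMIs of a type's cells in a library on the usual counts-per-million scale, as mean ± SD over atlas libraries with at least 20 such cells (n = 11 for cDC1-like, 12 for cDC2-like, 9 for mature DC-like, 12 for macrophage-like, 12 for LSEC-like and 9 for BEC-like cells). They are compared within a gene only. Neighbours in the order of levels were compared library by library with a two-sided exact sign-flip permutation test, adjusted over 50 neighbour pairs.

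Cd40, the licensing receptor, stood at 110.2 ± 45.8 CPM in mature DC-like, 44.4 ± 14.6 in cDC2-like, 19.4 ± 10.5 in macrophage-like and 11.3 ± 7.37 in cDC1-like cells, and at 5.13 ± 2.15 and 2.71 ± 2.41 in LSEC-like and BEC-like cells. Its pairs of cDC1-like with LSEC-like and LSEC-like with BEC-like cells did not pass (adjusted p = 0.16 and 0.0504, exact sign-flip permutation test). Cd80 followed the same top order with 98.3 ± 27.3 CPM in mature DC-like and 58.7 ± 28.7 in cDC2-like cells, while its levels in cDC1-like (26.2 ± 20.9) and macrophage-like cells (22.9 ± 10.2) did not differ beyond their spread (adjusted p = 0.87, exact sign-flip permutation test). Icosl was graded across the dendritic cells, with 178.5 ± 81.0 CPM in mature DC-like, 97.6 ± 31.0 in cDC2-like and 40.9 ± 18.9 in cDC1-like cells, against 17.4 ± 7.53 in macrophage-like cells.

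Cd86 separated the 4 myeloid types far less. Its level was 231.4 ± 97.5 CPM in mature DC-like, 197.2 ± 33.9 in cDC1-like, 184.1 ± 50.5 in macrophage-like and 146.7 ± 57.2 in cDC2-like cells, and none of these 3 neighbour pairs passed the test (adjusted p = 0.62, 0.39 and 0.053, exact sign-flip permutation test). LSEC-like and BEC-like cells had 2.73 and 1.81 CPM. After thinning, 0.490% of LSEC-like and 0.391% of BEC-like cells carried a Cd86 UMI, below the 1.95% of T-like cells. Whether T-like cells lack Cd86 was not tested, so these levels were not shown to be above background.

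**Figure D1:**
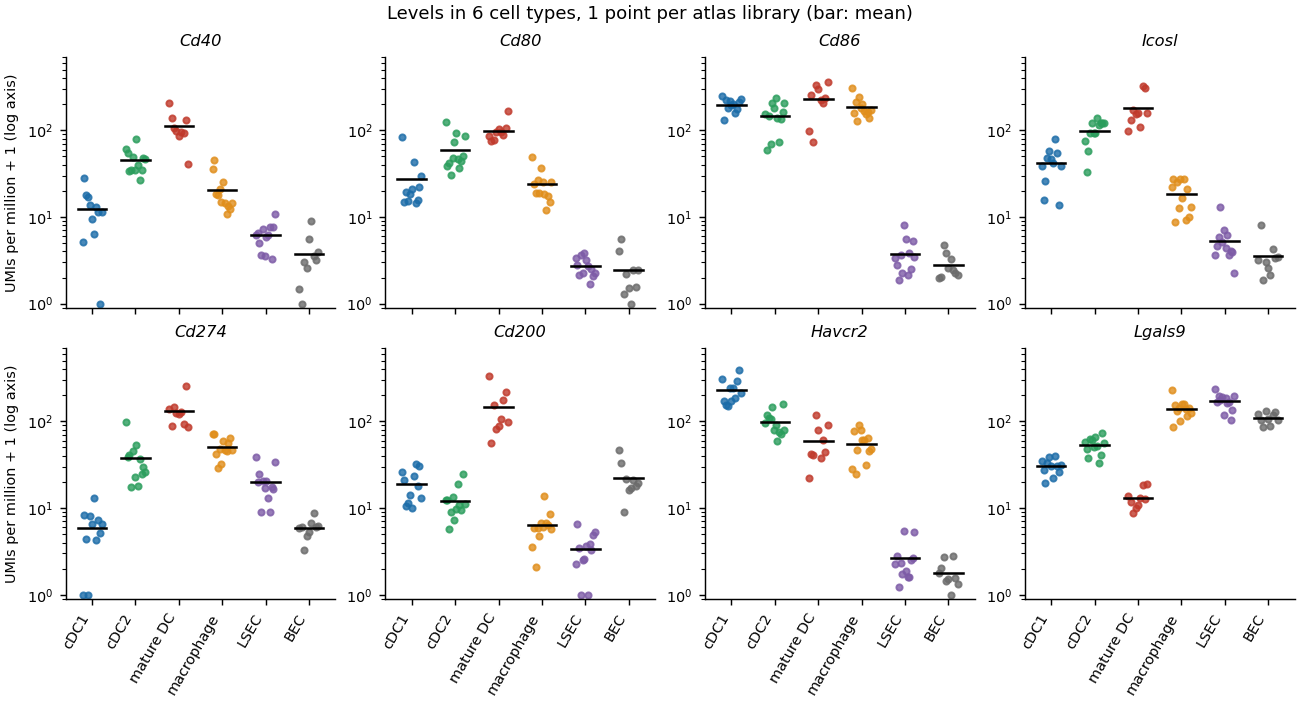
Levels of 8 of the genes (Pdcd1lg2 and Ido1 left out) in the 6 cell types, as CPM + 1 on a log axis. Each point is an atlas library with at least 20 cells of that type and each line the mean; Cd40, Cd80, Icosl, Cd274 and Cd200 peak in mature DC-like cells, Havcr2 in cDC1-like cells and Lgals9 in LSEC-like cells.

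Among the inhibitory ligands, Cd274 was 130.2 ± 50.8 CPM in mature DC-like, 50.02 ± 13.6 in macrophage-like and 36.7 ± 22.2 in cDC2-like cells, and 19.1 ± 8.97 CPM in LSEC-like cells. cDC1-like cells had only 4.94 ± 3.40 CPM of Cd274, next to 4.90 ± 1.47 in BEC-like cells. Of thinned cDC1-like cells, 0.675% held a UMI of it, against 0.571% of hepatocyte-like cells. Whether hepatocyte-like cells lack Cd274 was not tested, so the cDC1-like level was not shown to be above background. Cd200 was 145.2 ± 86.6 CPM in mature DC-like, 21.5 ± 11.0 in BEC-like, 18.2 ± 8.03 in cDC1-like, 11.1 ± 5.15 in cDC2-like and 5.32 ± 2.82 in macrophage-like cells. For Cd200, mature DC-like cells were above BEC-like cells in all 6 shared libraries, but 6 pairs cannot give an exact p under 0.031 and the adjusted p was 0.0504. BEC-like and cDC1-like cells did not differ beyond their spread (adjusted p = 0.74, exact sign-flip permutation test).

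Havcr2 had the reverse order within the dendritic cells. It was 228.5 ± 77.2 CPM in cDC1-like, 98.0 ± 30.5 in cDC2-like and 58.6 ± 30.6 in mature DC-like cells, and the last did not differ beyond the spread from macrophage-like cells at 53.9 ± 21.1 CPM (adjusted p = 0.76, exact sign-flip permutation test). Lgals9 was most abundant outside the dendritic cells, at 168.9 ± 36.7 CPM in LSEC-like, 139.5 ± 36.5 in macrophage-like and 109.2 ± 16.6 in BEC-like cells. It was lower in cDC2-like (52.3 ± 11.9), cDC1-like (29.4 ± 6.38) and mature DC-like cells (12.1 ± 3.499), with all 5 neighbour pairs past the test.

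Pdcd1lg2 and Ido1 were close to undetected. Pdcd1lg2 had 236 UMIs in 0.239% of all cells, and its highest mean level among the 6 types was 2.51 ± 2.66 CPM in mature DC-like cells. Ido1 had 88 UMIs in 0.0848% of all cells and 0.953 ± 1.48 CPM in mature DC-like cells. Both fell below the count filter of the edgeR fits across all genes, and none of their neighbour pairs passed the exact test on CPM. With no filter edgeR called all 10 genes between mature DC-like and cDC2-like cells, these among them, so their small differences depend on the setting.

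Shares of cells with a UMI were read at equal depth, as the share expected with each cell thinned to 1500 UMIs. The same cell type came first for all 10 genes. After thinning, 16.8% of mature DC-like cells carried a Cd274 UMI (47.1% unthinned) and 0.571% of hepatocyte-like cells (0.879%), 22.8% an Icosl UMI (62.6%) and 13.7% a Cd40 UMI (47.0%), the last against 0.0345% of T-like cells (0.134%). Havcr2 was found in 27.6% of thinned cDC1-like cells (81.8% unthinned) and 7.29% of mature DC-like cells (28.7%), against 0.221% of B-like cells (0.432%), a type that should lack it. Lgals9 was found in 20.5% of LSEC-like cells (49.5% unthinned) and 1.31% of mature DC-like cells (9.72%). No named type lacked Lgals9, so no background share could be set for it, and the mature DC-like share, the lowest of all named types, is not read as expression. Median depths were 5114 to 16490 UMIs in mature DC-like, 7465 to 23197 in cDC1-like, 2168 to 8502 in LSEC-like, 2194 to 6696 in T-like, 2079 to 4899 in B-like and 1855 to 3673 in hepatocyte-like cells over libraries. A thinned mature DC-like cell showed a UMI of 1.18 ± 0.17 of the 10 genes on average (n = 9), a cDC2-like cell of 0.721 ± 0.159 and a cDC1-like cell of 0.71 ± 0.10.

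Mature DC-like cells were then set against cDC2-like cells of the same libraries, to ask how the signals of the mature state differ from those of the larger tissue population. Of the 8 genes tested, 6 were higher in mature DC-like cells (Cd40, Cd80, Cd86, Icosl, Cd274 and Cd200) and 1 was lower (Lgals9), against 21.8% higher and 24% lower of all 7613 genes tested. Counts were summed per library and type and tested with edgeR's quasi-likelihood test with the library as a block. The labels do not tie mice to libraries, so p-values here and below measure the spread between libraries.

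Cd200 differed most: across 9 libraries its lowest, median and highest levels were 55.8, 105.6 and 332 CPM in mature DC-like and 4.81, 8.79 and 18.1 CPM in cDC2-like cells. The levels of the cell types did not overlap, and the log2 fold change was 4.01 ± 0.20 (SE, adjusted p = 5.94e-11). Cd274 ran from 84.9 through 122.6 to 253 CPM in mature DC-like and from 16.5 through 24.9 to 52.0 CPM in cDC2-like cells, again with no overlap (log2 fold change 2.34 ± 0.21, adjusted p = 4.38e-08). Lgals9 went the other way without overlap, with 7.83, 11.8 and 17.9 CPM in mature DC-like against 37.0, 51.4 and 64.4 CPM in cDC2-like cells (log2 fold change -1.99 ± 0.17, adjusted p = 2.91e-08). As the mature DC-like share of Lgals9 is not read as expression, the size of this fold change is not ranked with the others.

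For the costimulatory genes the differences were smaller and the ranges overlapped, with the same direction in 8 or 9 of 9 libraries. Cd40 had 40.2, 98.3 and 207 CPM in mature DC-like and 32.7, 39.3 and 78.4 CPM in cDC2-like cells (lowest, median and highest), was higher in 8 of 9 libraries and had a log2 fold change of 1.58 ± 0.18 (adjusted p = 1.48e-06). Cd80 had 74.4, 93.4 and 165.3 CPM against 29.2, 46.3 and 93.0 CPM and was higher in 9 of 9 libraries (log2 fold change 1.12 ± 0.13, adjusted p = 9.10e-07). Icosl was also higher in 9 of 9, with 97.4, 156.4 and 326 CPM against 31.9, 92.5 and 137.9 CPM (log2 fold change 1.13 ± 0.13, adjusted p = 1.86e-06).

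For Cd86 the log2 fold change was 0.80 ± 0.11 (adjusted p = 6.87e-06), with 8 of 9 libraries higher, but it was 0.25 with adjusted p = 0.21 when cells were named one by one from the markers and not by cluster. Havcr2 was lower in 7 of 9 libraries, with a log2 fold change of -0.53 ± 0.21 that missed the threshold (adjusted p = 0.052). It passed in 8 alternatives, among them cells named one by one (-1.91, adjusted p = 2.94e-07), no filter (-0.67, adjusted p = 4.41e-05), doublets removed (-0.65, adjusted p = 0.040) and fits without D5 A, D5 B, D9 B or D25 B (-0.67 to -0.62), and in the exact sign-flip permutation test on CPM (adjusted p = 0.0488). Havcr2 did not pass by DESeq2, or in the fits without D0 B, D3 A, D3 B, D9 A or D19 B. The median log2 fold change of the 8 genes was 1.12, beside -0.03 over all genes tested.

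**Figure D2:**
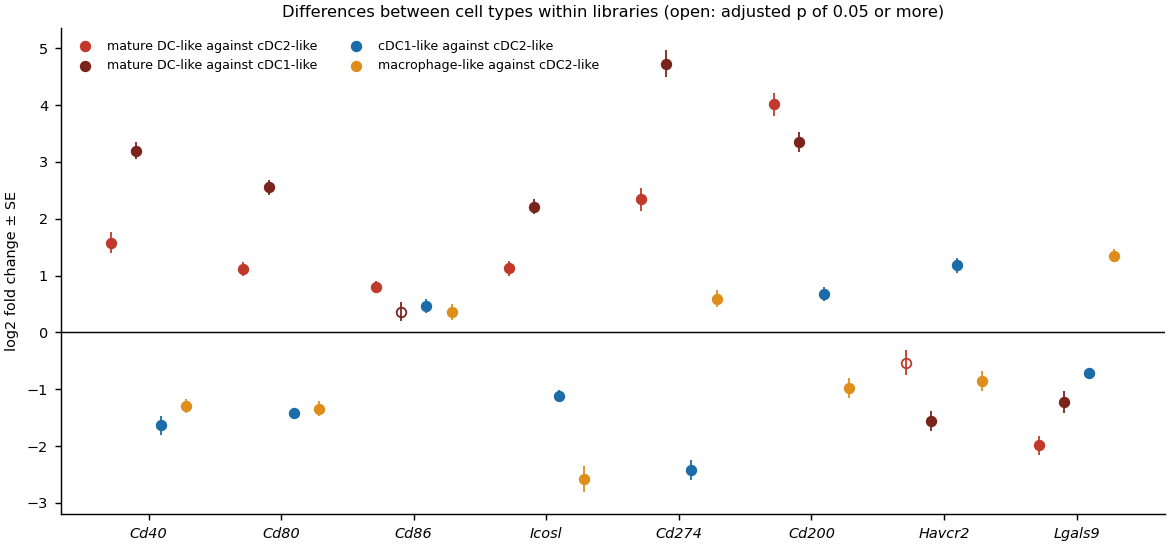
Log2 fold changes with SE of the 8 tested genes in the 4 comparisons of cell types. Filled points passed adjusted p under 0.05 in edgeR; Cd40, Cd80, Icosl, Cd274 and Cd200 lie above 0 in both comparisons of mature DC-like cells and Lgals9 below 0.

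Against cDC1-like cells, the mature DC-like levels of Cd40, Cd80, Icosl, Cd274 and Cd200 were higher in 9 of 9 libraries and those of Havcr2 and Lgals9 lower in 9 of 9, with no overlap for these 7 genes. Over all 7391 genes tested, 26.3% were higher and 27% lower. Cd274 had 0, 5.63 and 11.9 CPM (lowest, median and highest) in the cDC1-like cells, a level not shown to be above background, so its fitted log2 fold change of 4.73 ± 0.23 (adjusted p = 4.62e-12) is not ranked with the others. The log2 fold changes were 3.34 ± 0.17 for Cd200, 3.20 ± 0.15 for Cd40, 2.55 ± 0.13 for Cd80 and 2.21 ± 0.13 for Icosl.

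Havcr2 had 149.3, 187 and 290.3 CPM (lowest, median and highest) in the cDC1-like cells of these libraries and 21.2, 43.4 and 116.7 CPM in the mature DC-like cells, a log2 fold change of -1.57 ± 0.18 (adjusted p = 5.38e-07). Lgals9 was lower in mature DC-like cells by a fitted 1.22 ± 0.19 on the log2 scale (adjusted p = 2.38e-05). That size is not ranked with the others, as the mature DC-like share is not read as expression. Cd86 did not pass, with a log2 fold change of 0.36 ± 0.16 (adjusted p = 0.067) and 7 of 9 libraries higher. Its direction depended on the setting: it passed as higher without D0 B (0.44, adjusted p = 0.034) and without D3 B (0.54, adjusted p = 6.0e-04), and as lower with cells named one by one (-0.49, adjusted p = 0.026).

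The subsets cDC1-like and cDC2-like themselves differed in all 8 genes tested. cDC2-like cells carried more Cd40, Cd80, Icosl, Cd274 and Lgals9 and cDC1-like cells more Havcr2, Cd200 and Cd86, each in the same direction in 11 of 11 libraries except Cd86 (10 of 11). Among all 9198 genes tested, 27.8% were higher and 28.9% lower in cDC1-like cells. Havcr2 had 149.3, 209 and 394 CPM in cDC1-like against 57.6, 93.7 and 156.9 CPM in cDC2-like cells, so only the ends of the ranges overlapped (log2 fold change 1.18 ± 0.13, adjusted p = 1.80e-07).

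The remaining differences between cDC1-like and cDC2-like cells were -1.63 ± 0.17 for Cd40, -1.42 ± 0.09 for Cd80, -1.11 ± 0.09 for Icosl and -0.72 ± 0.09 for Lgals9 on the log2 scale. Cd200 was 0.68 ± 0.12 and Cd86 0.47 ± 0.12 higher in cDC1-like cells (adjusted p = 7.05e-05 and 0.00279). For Cd274 the cDC1-like level was not shown to be above background, so its fitted value of -2.42 ± 0.17 is not ranked with these. Cd40 and Cd274 did not overlap between the subsets.

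Macrophage-like cells differed from cDC2-like cells in all 8 genes as well, with Lgals9, Cd274 and Cd86 higher and Icosl, Cd80, Cd40, Cd200 and Havcr2 lower, against 30.9% of all 10273 genes higher and 30% lower. Protocol B sorted its Cd45+ Itgax+ cells as Cd64-, a gate that protocol A lacked, and its part in the macrophage-like levels was not tested. Lgals9 stood at 85.0, 139.9 and 230.4 CPM in macrophage-like and 32.5, 53.1 and 73.2 CPM in cDC2-like cells, higher in 12 of 12 libraries with no overlap (log2 fold change 1.35 ± 0.12, adjusted p = 1.54e-08). Icosl was lower in 12 of 12 with no overlap (log2 fold change -2.58 ± 0.22, adjusted p = 1.78e-08). Cd274 was higher in 11 of 12 libraries, by 0.59 ± 0.15 on the log2 scale (adjusted p = 0.00214).

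Cd40 and Cd80 were lower in macrophage-like cells in 12 of 12 libraries (log2 fold changes -1.30 ± 0.13 and -1.34 ± 0.13), Cd200 in 12 of 12 (-0.97 ± 0.18) and Havcr2 in 11 of 12 (-0.85 ± 0.18). Cd86 was 0.37 ± 0.14 higher on the log2 scale in macrophage-like cells (adjusted p = 0.033) and higher in 9 of 12 libraries. That call was lost in 4 of the fits that left out 1 library each, with adjusted p between 0.054 and 0.075, and with cells named one by one (0.17).

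Within the clusters, the dendritic cells were not uniform in these genes. The subclusters are described without a test, over atlas libraries with at least 20 of their cells. The largest cDC2-like subcluster, led by Ccl17 and Tnip3 (2305 cells, n = 9 libraries), had mean levels of 84.4 CPM Cd80, 202 CPM Cd86, 120.1 CPM Icosl and 53.7 CPM Cd40. A subcluster led by Bex6 and Ffar2 (n = 10) had 21.3 CPM Cd80, 113 CPM Cd86, 92.6 CPM Icosl and 29.6 CPM Cd40. A cDC2-like subcluster led by the lectin genes Cd209d and Cd209e (811 cells, n = 5) stood apart with 2.59 ± 1.56 CPM Cd274 and 10.5 ± 5.67 CPM Havcr2, the latter far below the 98.0 CPM of cDC2-like cells as a whole.

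A small subcluster led by Adgrl3, H2-Eb2 and Clec4a4 (53 cells, n = 2) lay at the other end, with 454.5 CPM Cd86, 484 CPM Havcr2 and 146 CPM Cd80 but 9.996 CPM Cd40. Another, led by Ly6i and Lyz1, came almost wholly from D0 B (93.9% of its cells) and had 124.9 CPM Cd40 and 95.1 CPM Cd274 with 9.95 CPM Icosl. Among cDC1-like cells, the subcluster led by the cell cycle genes Pclaf and H1f5 (n = 5) had 8.96 CPM Cd80 and 130.3 CPM Havcr2, against 20.7 and 222.5 CPM in the subcluster led by Sept3 and Gpr141b (n = 10).

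**Figure D3:**
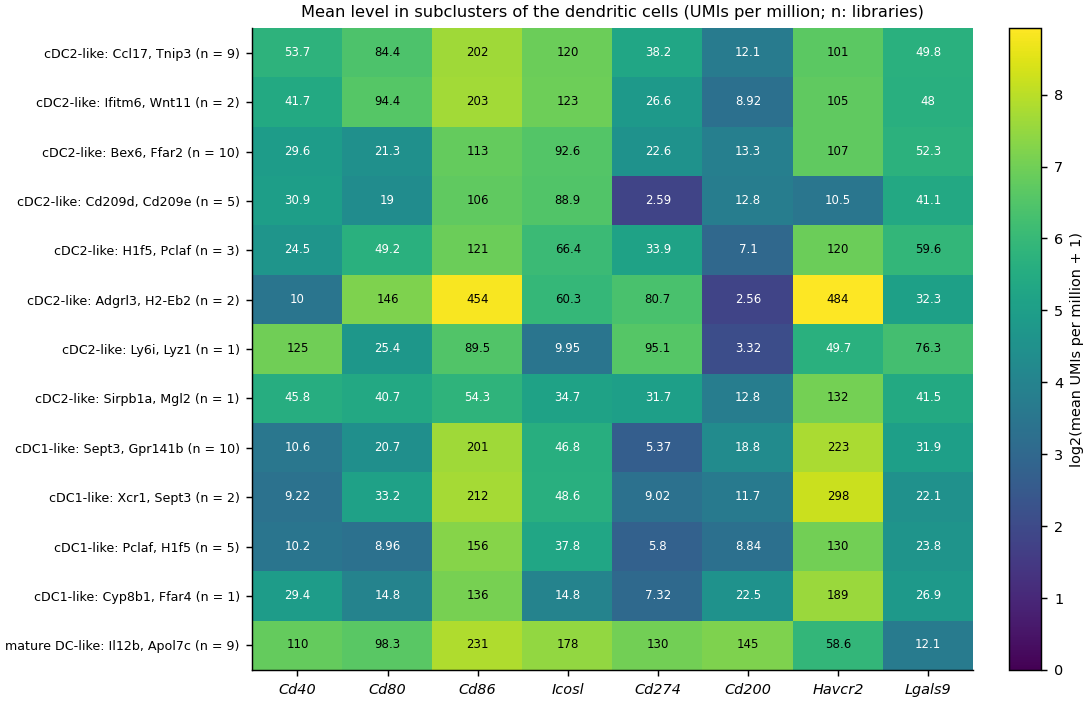
Mean CPM of 8 genes in the cDC1-like, cDC2-like and mature DC-like subclusters with at least 20 cells in an atlas library. Values are printed in the cells and shown as log2(CPM + 1) in colour, with the leading genes and n libraries as row names. Among those shown, the Cd209d and Cd209e subcluster is lowest for Cd274 and Havcr2 and the mature DC-like subcluster is highest for Cd274, Icosl and Cd200. Plasmacytoid DC-like cells are not shown.

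With 1 or 2 D0 libraries per type, few of these genes were called between DDC and D0 in any cell type. Comparing the mean of onset and progression with D0, with isolation protocol as a term, edgeR called 1 gene in cDC2-like cells (Cd274, lower), 2 in mature DC-like cells (Cd40 and Cd200, lower, against the single library D0 B), 1 in macrophage-like cells (Cd40, lower) and none in cDC1-like, LSEC-like and BEC-like cells. Of all genes tested, 1.56% were called in cDC2-like, 1.78% in mature DC-like, 5.17% in macrophage-like, 0.655% in cDC1-like, 0.264% in LSEC-like and 0.22% in BEC-like cells. These shares rest on 1 or 2 D0 libraries: leaving out 1 library moved the count from 179 to between 2 (without D0 B) and 1246 genes (without D0 A) in cDC2-like, and from 65 to between 9 (without D0 B) and 1079 (without D0 A) in cDC1-like cells. It moved from 134 to between 77 (without D3 A) and 288 (without D3 B) in mature DC-like, and from 609 to between 362 (without D5 A) and 699 (without D0 B) in macrophage-like cells. In LSEC-like cells it moved from 34 to between 8 (without D3 A or D25 A) and 238 (without D0 A), and in BEC-like cells from 32 to between 0 (without D9 A) and 325 (without D3 B). Where D0 is 1 library (mature DC-like cells, BEC-like cells and every value within a protocol), the fit assumes that this library varies like the other groups, and diet cannot be told apart from what is particular to it.

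In cDC2-like cells, Cd274 was 97.4 CPM in D0 A (27 cells) and 38.0 CPM in D0 B. At onset it was 39.9 CPM in D3 A, 16.5 CPM in D3 B, 44.9 CPM in D5 A and 21.5 CPM in D5 B, and over the 6 progression libraries it was 16.8, 26.8 and 52.0 CPM (lowest, median and highest). Most D0 B cells lay in a subcluster almost without DDC cells (880 cells, led by Sirpb1a and Mgl2). Protocol A libraries were higher than protocol B libraries of the same day on each of the 6 days, and within each protocol D0 was the highest. The log2 fold change was -1.09 ± 0.26 (adjusted p = 0.044), -0.95 within protocol A (adjusted p = 0.38) and -1.16 within protocol B (adjusted p = 0.062), each against 1 D0 library. Without D0 B it was -0.87 (adjusted p = 0.47), and the call was kept in 5 of the 12 fits that left out 1 library (not without D0 B, D3 A, D5 A, D5 B, D9 B, D19 B or D25 A; values -1.15 to -0.87). With cells named one by one the call was also lost (-1.26, adjusted p = 0.098).

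Icosl in cDC2-like cells moved the other way, from 75.0 and 31.9 CPM in D0 A and D0 B to 56.7, 92.5, 119.9 and 91.2 CPM in D3 A, D3 B, D5 A and D5 B and to 91.5, 120.2 and 137.9 CPM (lowest, median and highest) in progression. All DDC libraries of protocol B lay above D0 B, while D3 A lay below D0 A. The log2 fold change of 1.12 ± 0.28 missed the threshold (adjusted p = 0.053), and was 1.47 within protocol B (adjusted p = 0.030) and 0.62 within protocol A (adjusted p = 0.58), each against 1 D0 library. It was also called by DESeq2, without a filter, with cells named one by one, without called doublets, without D0 A and without D3 A (1.12 to 1.49). Beside these results, the summed level of the hepatocyte markers in cDC2-like cells was 239.7 to 337.3 CPM at D0, 139.6 to 181.1 at onset and 73.7 to 239.5 in progression, and its part was not tested.

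In mature DC-like cells only D0 B could stand for D0, so the following values compare DDC libraries with that library. Cd40 was 207 CPM in D0 B, 136.4, 106.7, 98.3 and 85.7 CPM in D3 A, D3 B, D5 A and D5 B, and 93.4, 93.3, 130.2 and 40.2 CPM in D9 A, D9 B, D19 B and D25 B. D0 B was above all 8 DDC libraries, with a log2 fold change of -1.54 ± 0.39 (adjusted p = 0.046). The call was kept in 3 of 8 fits that left out 1 DDC library (not without D3 A, D5 A, D5 B, D9 A or D9 B), with values of -1.67 to -1.42, and it was lost with called doublets removed (-1.32, adjusted p = 0.079). D0 A, with 13 cells and outside the fit, had 345.5 CPM.

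Cd200 in mature DC-like cells was 332 CPM in D0 B, 55.8, 153.6, 81.2 and 88.1 CPM in the 4 onset libraries in the same order, and 105.6, 175.8, 217 and 98.3 CPM in the 4 progression libraries. D0 B was above these 8 libraries, with a log2 fold change of -1.62 ± 0.35 (adjusted p = 0.024), but D0 A, with 13 cells and outside the fit, had 167.2 CPM and lay within their range. Of the DDC libraries outside the fit, D19 A (6 cells) had 347.4 CPM of Cd200, above D0 B, and D25 A (8 cells) had 231.9 CPM. With D0 A included (at least 10 cells per library) neither gene passed (Cd40 -1.44, adjusted p = 0.070, and Cd200 -1.27, adjusted p = 0.108), nor with cells named one by one (Cd40 -1.36, adjusted p = 0.055, and Cd200 -0.87, adjusted p = 0.157). Within protocol B the values were -1.53 for Cd40 (adjusted p = 0.105) and -1.60 for Cd200 (adjusted p = 0.079), and no protocol A library of D0 reached 20 cells. The summed level of the mature DC markers was 11435 CPM in D0 B, 4071 to 8486 at onset and 5287 to 7905 in progression. Among these libraries, all with at least 20 such cells, D0 B had the most Cd40, Cd200 and markers, and the part of this was not tested.

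In macrophage-like cells Cd40 was 35.3 and 44.4 CPM at D0, 17.4, 16.7, 20.04 and 13.8 CPM in D3 A, D3 B, D5 A and D5 B, and 9.97, 12.96 and 24.4 CPM (lowest, median and highest) over 6 progression libraries. D0 and DDC libraries did not overlap, and the log2 fold change was -1.24 ± 0.32 (adjusted p = 0.040). The log2 fold change was -1.85 within protocol B (adjusted p = 0.0097) and -0.60 within protocol A (adjusted p = 0.48), each against 1 D0 library and with the difference between them not tested, and it was -0.63 without D0 B (adjusted p = 0.33). The call was kept in 4 of 12 fits that left out 1 library (not without D0 B, D3 B, D5 A, D5 B, D9 B, D19 B, D25 A or D25 B). Different clusters made up the macrophage-like cells. That led by Gpnmb and Ms4a7 held 77.4% of DDC cells, 8.76% of D0 A and 24.5% of D0 B cells, that led by Clec4f and Marco 22.5%, 73.1% and 10.8%, and that led by H2-M2 and Ccl12 0.0713%, 18.2% and 64.6%. Within the Gpnmb cluster Cd40 was 69.6 CPM in D0 B (21 UMIs), 17.4 CPM in D0 A (4 UMIs) and 7.47 to 23.5 CPM in the DDC libraries, so that D0 A lay within their range. Within the Clec4f cluster it was 38.9 CPM in D0 A and 11.3 to 28.4 CPM in the DDC libraries, with 2 UMIs in D0 B. These levels by cluster, chosen after seeing the data, carry no test. Cd274 in macrophage-like cells, 69.8 and 69.6 CPM at D0 and 28.2 to 63.4 CPM in DDC libraries, did not pass (log2 fold change -0.56, adjusted p = 0.16). Its log2 fold change was -0.03 within protocol A and -1.06 within protocol B, each against 1 D0 library.

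**Figure D4:**
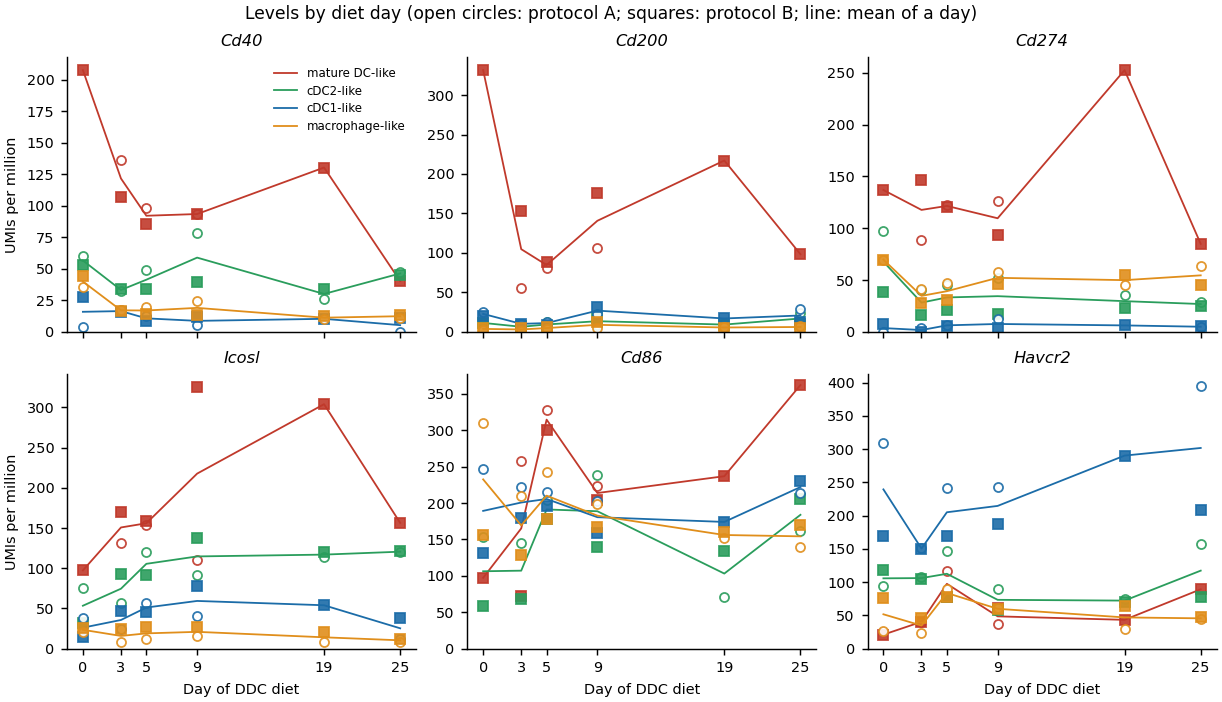
Levels of 6 genes by day of diet in the dendritic and macrophage-like cells, in CPM. Open circles are protocol A libraries, squares protocol B libraries and lines the mean of a day. Cd274 in cDC2-like cells and Cd40 in macrophage-like cells are highest at D0 in both protocols, and Cd40 and Cd200 in mature DC-like cells at D0 rest on D0 B alone.

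In cDC1-like cells none of the 8 genes was called by edgeR or DESeq2 over all libraries, and 3 had an unadjusted p under 0.05, as had 15.3% of all genes: Icosl (log2 fold change 1.15 ± 0.43, adjusted p = 0.22), Cd40 (-1.10 ± 0.43, adjusted p = 0.24) and Cd200 (-0.73 ± 0.32, adjusted p = 0.29). The log2 fold change of Icosl was 0.19 within protocol A and 1.46 within protocol B, each against 1 D0 library. The subcluster led by Cyp8b1 and Ffar4 held 83.1% of the D0 B cells. The sign for Cd40 rested on D0 B, since D0 A held 1 Cd40 UMI in 23 cells and the value was 1.60 without D0 B (adjusted p = 0.65). With D0 B as the only D0 library, Cd40 was called within protocol B (-1.60, adjusted p = 0.031) and without D0 A (-1.55, adjusted p = 0.029), and Icosl without D0 A (1.49, adjusted p = 0.045). In LSEC-like and BEC-like cells 0 of 8 genes had an unadjusted p under 0.05 in edgeR, against 11.5% and 18.3% of all genes, and DESeq2 called 0. For BEC-like cells D0 was D0 A alone, with 2 onset libraries, both of protocol B. Cd200 in BEC-like cells was 45.2 CPM in D0 A, 32.3 and 8.06 CPM in D3 B and D5 B, and 15.2, 17.8 and 20.5 CPM (lowest, median and highest) in progression, D0 A being highest (log2 fold change -0.99 ± 0.53, adjusted p = 0.34). Without D3 B, which leaves 1 onset library, it was called (-1.58, adjusted p = 0.039). Of the D0 A cells, 88.4% lay in the cluster led by Ces1d and Ddit4l, and 93.2% of the DDC cells in those led by Cxcl5 and by Dmbt1. Cd200 in the Ces1d cluster was 44.6 CPM (40.3 to 49.2, exact Poisson 95% interval) in D0 A, 35.0 (25.3 to 47.4) in D3 B and 24.9 (10.02 to 51.3) in D9 A, with overlapping intervals. In the Dmbt1 cluster it was 52.2 CPM in D0 A and 8.03 to 31.2 CPM in the DDC libraries. For LSEC-like cells, 91.1% of the D0 A cells lay in the cluster led by the hepatocyte genes Serpina1e and Mup11, apart from those of the DDC libraries. The part of hepatocyte transcripts in these cells was not tested.

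Between onset and progression edgeR and DESeq2 called none of the 8 genes in any of the 6 cell types, where edgeR called 0.0101% of all genes in cDC1-like, 0.272% in macrophage-like, 0.0389% in LSEC-like and 0% in cDC2-like, mature DC-like and BEC-like cells. These few calls also moved with single libraries. Leaving out 1 library gave 1 to 42 genes in cDC1-like cells (1 over all libraries), 2 to 63 in macrophage-like cells (32), 1 to 60 in LSEC-like cells (5), and 0 to 19, 0 to 2 and 0 to 22 in cDC2-like, mature DC-like and BEC-like cells. The highest count came without D5 B in all types but macrophage-like cells, where it came without D0 A and the lowest without D3 A, and none of the 8 genes was called in any of these fits. An unadjusted p under 0.05 was reached by 2 genes in cDC1-like, 2 in macrophage-like and 1 in LSEC-like cells, where 8.84%, 10.5% and 8.03% of all genes reached it, and by 0 in the other types. Cd200 was 0.96 ± 0.29 higher in progression on the log2 scale in cDC1-like cells (adjusted p = 0.35) and 0.92 ± 0.37 in macrophage-like cells (adjusted p = 0.38). Havcr2 in cDC1-like cells was 0.51 ± 0.21 higher (adjusted p = 0.51), Cd274 in macrophage-like cells 0.47 ± 0.18 higher (adjusted p = 0.35), and Icosl in LSEC-like cells 0.86 ± 0.35 lower (log2 fold change -0.86, adjusted p = 0.57).

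After the diet was stopped, cDC2-like cells in the STOP library held more Cd80, Cd86, Cd274 and Havcr2 and less Icosl than those of D19 B, the protocol B library at the end of prolonged feeding. With 1 library on each side there is no test, and the exact Poisson 95% intervals given cover counting error only. Cd80 was 108.7 CPM (97.2 to 121.2) in STOP and 43.6 CPM (38.7 to 48.9) in D19 B, and Havcr2 was 190 CPM (174.4 to 206) against 69.9 CPM (63.6 to 76.5). Cd274 was 44.2 CPM (37.0 to 52.4) against 23.4 CPM (19.9 to 27.4). Set against all 6 protocol B libraries of the atlas, the STOP values of Cd80, Havcr2 and Cd274 in this type lay above the highest (85.3, 117.9 and 38.0 CPM). Those of Cd86 (162.3 CPM) and Icosl (85.99 CPM) lay within the range, with D25 B at 205.4 CPM for Cd86 and D0 B at 31.9 CPM for Icosl.

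Different subclusters made up the cDC2-like cells of the libraries. In D19 B, 48.9% of them lay in the subcluster led by Ccl17 and Tnip3 and 7.96% in the subcluster led by Ifitm6 and Wnt11, against 9.88% and 39.5% in STOP, and the subcluster led by Adgrl3 and H2-Eb2, with the highest Havcr2 and Cd86 of all, held 0.513% and 11.6%. Within the 4 subclusters with at least 20 cells in both libraries, a comparison chosen after seeing the data, the Cd80 intervals were apart in 3, those of Cd274 in 1 and those of Cd86, Havcr2 and Icosl in none. Cd80 was 145.4 CPM (124.1 to 169.3) in STOP and 87.6 CPM (64.1 to 116.8) in D19 B in the Ifitm6 subcluster, where Havcr2 was 142.8 CPM (121.7 to 166.5) and 129.5 CPM (100.6 to 164.2).

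In cDC1-like cells Cd86 was 244.7 CPM (233.7 to 256.2) in STOP and 174 CPM (157.8 to 191.4) in D19 B, Cd80 was 25.5 (22.04 to 29.4) and 14.8 (10.4 to 20.6), and Icosl was lower in STOP at 27.0 against 54.0 CPM. Among the protocol B libraries the STOP value lay above all 6 for Cd86, but below D25 B for Cd80 (28.8 CPM) and above D0 B for Icosl (14.7 CPM). Here too the subclusters differed: 79.3% of the D19 B cells lay in the subcluster led by Sept3 and Gpr141b and 62.2% of the STOP cells in that led by Xcr1 and Sept3. In the latter, Cd86 (267 against 179.9 CPM) and Icosl (21.9 against 63.1 CPM) had intervals apart and Cd80 (33.5 against 31.6 CPM) had not, and in the former none of these 3 had. Icosl was also lower in mature DC-like cells, with 189 CPM (153.9 to 230.5) against 304 CPM (239.8 to 379.8), the only gene whose intervals were apart in that type. STOP lay above 4 of the 6 protocol B libraries for it, which ran from 97.4 to 325.5 CPM, with D9 B and D19 B above it. Macrophage-like cells had more Lgals9 (164.6 against 114.2 CPM), Cd86 (208 against 160.8) and Cd80 (27.7 against 16.6) and less Havcr2 (39.2 against 63.9) in STOP, and the STOP value lay outside the protocol B range for Lgals9, Cd86 and Havcr2 but below D5 B for Cd80 (35.6 CPM). LSEC-like cells had more Lgals9 (215 against 104 CPM), above all 6 protocol B libraries, and Cd274 (27.7 against 16.6), below D25 B (33.4 CPM). In BEC-like cells no gene had intervals apart.

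**Figure D5:**
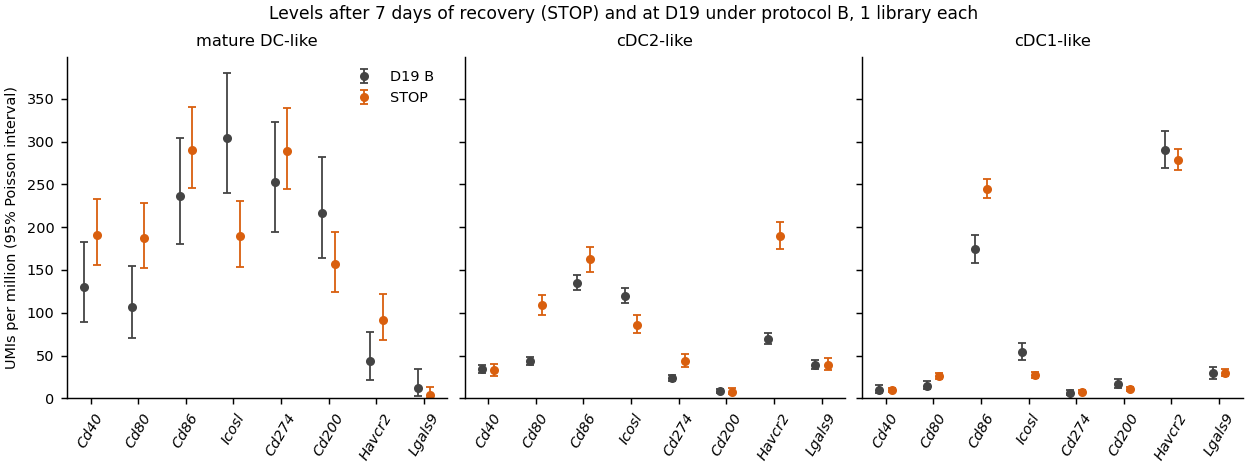
Levels of 8 genes in STOP and D19 B in the 3 dendritic cell types, in CPM, with exact Poisson 95% intervals. Icosl lies lower in STOP in all 3, and Cd80 and Havcr2 lie higher in STOP in cDC2-like cells, which fall into other subclusters than those of D19 B.

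A wider list of 18 costimulatory and inhibitory genes also differed between the cell types. Shares of all genes called in each direction were 21.8 to 30.9%, as given for each comparison above. Of the 6 tested between mature DC-like and cDC2-like cells, 3 were higher and 2 lower: the maturation marker Cd83 (log2 fold change 0.99), and Tnfsf9 (4-1BB ligand, -1.62) and Cd48 (-1.42). Against cDC1-like cells 5 of 6 were higher, led by Tnfsf9 (3.15), Pvr (2.08) and the adhesion molecule Icam1 (1.94), and 1 was lower. Between cDC1-like and cDC2-like cells 5 of 6 were lower, with Tnfsf9 at -4.72, Pvr at -1.89 and Icam1 at -1.47. Macrophage-like cells had 3 of 10 higher than cDC2-like cells (the B7 family gene Cd276, Vsir and Nectin2) and 6 lower, with Tnfsf9 at -3.90. The 3 higher genes, and Tnfsf14 among the lower, fell below the count filter in all comparisons between dendritic cell types. They can have passed it here through the cell type where they are higher. Their number is thus not read as a result, and the fitted values of Cd276 (4.74) and Tnfsf14 (-1.85) are not ranked with the others.

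Tnfsf9 averaged 470 CPM in cDC2-like, 145.9 in mature DC-like and 16.3 in cDC1-like cells, so it followed the order of neither Cd40 nor Cd274. Between DDC and D0, 1 gene of the list was called, Tnfsf9 in mature DC-like cells (log2 fold change -1.49, adjusted p = 0.028), against D0 B alone. With D0 A included it was -0.92 (adjusted p = 0.29), and with cells named one by one -1.05 (adjusted p = 0.26).

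Of 16 genes for partners of these signals, receptors in the main with the ligand of Cd40 among them, 13 were highest in T-like or NK-like cells and 3 in dendritic cells. Mean levels in T-like cells were 346 CPM for Cd28 and 114.7 for Ctla4 (receptors of Cd80 and Cd86), 327 for Icos (receptor of Icosl), 56.0 for Pdcd1 (receptor of Cd274 and Pdcd1lg2) and 135.1 for Cd40lg, which encodes CD40 ligand. Cd200r1 was highest in NK-like cells (89.4 CPM), as were Cd160 (316.5), Cd226 (233.5), Cd96 (90.2), Tnfrsf9 (30.9), Tnfrsf18 (19.3) and Tigit (8.73). Btla was highest in cDC1-like cells (126.9 CPM), just above B-like cells (122.9), and Lag3 in plasmacytoid DC-like cells (159.8). Tnfrsf4 was highest in mature DC-like cells (112.5 ± 101.1) with T-like cells at 106.8, and Cd27 was low throughout (2.31 in T-like cells).

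Across the 71 sums of the 6 types by library, which share libraries and depth, the gene whose level tracked each signal most closely is given as a description. Cd86 tracked the myeloid transcription factor Spi1 (Pearson r = 0.98), Havcr2 Plbd1 (0.98), Cd80 Myo1g (0.96) and Icosl the TNF receptor adaptor Traf1 (0.94), with Cd80 itself among the 3 closest to Icosl (0.92). Lgals9 tracked Aldh2 (0.92), Cd40 and Cd274 both Fam49a (0.90 and 0.81), and Cd200 the endocytic receptor gene Ly75 (0.88). Among the genes themselves, Havcr2 and Cd86 were most alike (0.93) and Lgals9 and Cd200 most opposed (-0.79).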

How the data were processed

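Single-cell RNA libraries of mouse liver were measured with 3′ chemistry. The values are whole counts of UMIs, unnormalised, which the authors deposited as a sparse matrix for each library. The submitters' processing notes name kallisto and GRCm38 (versions not given in the sources used here). The matrices hold 17968683 barcodes, cells and empty droplets together, and doublets were kept. Barcodes with at least 1500 UMIs were kept, normalised and clustered with the Leiden method of igraph 0.11.9 (2000 variable genes, without the 10 genes studied). They were named from 16 marker lists, and 15486 cells (16.2%) stayed unnamed. Scrublet was run in scanpy 1.11.5. Where its automatic cut called under 0.5% of cells, the 6% of cells with the highest scores were called instead. Names were rebuilt here, so they can differ from the study's. The genes and all lists were chosen with earlier results of these data known.

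Counts were summed per library and type where a library held at least 20 cells. edgeR 4.0.16 (TMM, filterByExpr, quasi-likelihood, Benjamini-Hochberg over all genes, adjusted p under 0.05) in R 4.3.3 was the test, with the library as block between types and the isolation protocol as a term for diet. DESeq2 1.42.0, no filter, at least 10 cells, naming of single cells, removal of cells called by Scrublet, protocols apart and leaving out each library were alternatives, and levels within subclusters for STOP and within clusters for 2 diet results were added after the data were seen. The model was tested on simulated data. Thinned shares are those expected when each cell is drawn down to 1500 UMIs, not the outcome of a single draw. Depth per library was 29307190 to 108602421 UMIs. The text names all 10 genes, the 3 of 18 further genes with the largest change among those called, 16 partner genes (receptors and Cd40lg) and, per gene, the gene with the highest correlation. One label calls the D19 B library day 18; its title was used. Subclusters, genes named in them and the types in the closing section were chosen after their values were seen.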

Additional observations from a re-analysis of the deposited data

Results flagged for a closer look

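Of 63 groups of 4 to 6 libraries, each of onset or of progression, tested for a library far from the others, 3 had such a library, and chance alone gives about 1 in 20. Cd40 in cDC2-like cells at onset was 48.9 CPM in D5 A and 32.7 to 33.7 CPM in the other 3 libraries. Cd40 in macrophage-like cells in progression was 24.4 CPM in D9 A and 9.97 to 13.5 CPM in the other 5. Havcr2 in cDC2-like cells in progression was 156.9 CPM in D25 A (52 cells) and 57.6 to 89.3 CPM in the other 5. All 3 libraries were of protocol A, and the cause was not tested.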

How the results depend on the processing

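For the single genes followed through the alternatives, 948 values were read: 884 kept their direction and call, 40 lost the call, 21 gained it and 3 reversed. For diet, only genes with a call or an unadjusted p under 0.05, and Cd200 in BEC-like cells, were followed. Calls gained by other genes are not in these counts, such as Havcr2 in cDC2-like cells against D0, or Pdcd1lg2 and Ido1 between cell types without a filter. The reversed values were Cd86 between mature DC-like and cDC1-like cells with cells named one by one (-0.49, adjusted p = 0.026), and Cd40 between DDC and D0 in cDC1-like cells within protocol A (1.09, adjusted p = 0.78) and without D0 B (1.60, adjusted p = 0.65), the latter ranging from -1.55 to 1.60 over left-out libraries. Calls against D0 depended most on the settings. In cDC1-like cells the number of the 10 genes called was 0, became 1 within protocol B and ran from 0 to 2 when each library was left out. In cDC2-like cells it was 1, with 2 by DESeq2, 3 without a filter, 2 with cells named one by one (Icosl and Havcr2 called, Cd274 lost), 2 without called doublets, 0 within protocol A and 0 to 2 over left-out libraries. In mature DC-like cells it was 2, with 0 at a minimum of 10 cells, 0 with cells named one by one, 1 without doublets (Cd40 lost), 0 within protocol B and 1 to 2 over left-out libraries. In macrophage-like cells it was 1, with 0 within protocol A and 0 to 1 over left-out libraries, and in BEC-like cells it was 0, with 0 to 1 (Cd200) over left-out libraries. The 2 D0 libraries at most per type, and the few dendritic cells of D0 A, limit what these comparisons can show. Counts over all genes moved more. Against D0, main counts of 65, 179, 134, 609, 34 and 32 genes in cDC1-like, cDC2-like, mature DC-like, macrophage-like, LSEC-like and BEC-like cells became 171, 424, 207, 962, 299 and 419 by DESeq2 and 439, 766, 262, 1236, 552 and 1137 without a filter. From onset to progression, 1, 0, 0, 32, 5 and 0 genes became 21, 14, 0, 195, 71 and 18 by DESeq2 and 207, 307, 20, 468, 371 and 275 without a filter. Between cell types all counts stayed within 1.5 times.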

Other observations

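Outside the 6 cell types compared, several of the genes were as high or higher. Cd80 was 181.4 ± 91.2 CPM (SD, n = 11) in neutrophil-like cells, where Cd274 was 95.1 ± 29.6 CPM. Cd200 was 254.9 ± 96.3 CPM (n = 9) in endothelial-like cells other than LSEC, 236.1 ± 58.0 CPM (n = 7) in plasmacytoid DC-like cells and 214.7 ± 143.2 CPM (n = 8) in stellate or fibroblast-like cells. B-like cells had 104.3 ± 66.1 CPM Cd86, 37.2 CPM Cd40 and 72.0 CPM Cd200, and NK-like cells 56.0 CPM Cd274. These types were not part of any test.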
